A study of Mus musculus with 12 samples.

Results

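The 5 genes described here, Csf1, Spp1, Fcer1g, Itgax and Mmp9, are better known from macrophages, neutrophils and dendritic cells than from T cells, and they were followed in T cells sorted from mouse tumours. They are 5 of the 32285 gene symbols in the expression matrices, and all 5 had UMIs (unique molecular identifiers, each standing for 1 counted transcript molecule) in the T cells. They were chosen by their UMI levels in these same cells, across clusters and treatments, so their differences between clusters and between treatments are given as a description, with no test. Tests are given for other genes of the same pathways, for marker genes of other cell types and for the T cell receptors of the cells. The lists of pathway and marker genes were also drawn up with earlier results of these data known. The p-values of their genes are therefore not independent of that choice.

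The cells came from MCA205 tumours, a fibrosarcoma line placed under the skin of C57Bl/6 mice as 300000 cells. All 6 mice received 10 mg/kg of oxaliplatin, a platinum drug, after 8 days and 200 µg of an antibody against PD-1 after a further 8 days. On top of this shared chemoimmunotherapy, 3 mice received an antibody that neutralises acyl-CoA binding protein (ACBP, also called DBI) and 3 mice an isotype antibody, dosed at 2.5 mg/kg with an interval of 2 days, starting 2 days ahead of oxaliplatin and ending 1 day ahead of anti-PD-1. Tumours were taken 2 days after anti-PD-1, CD4+ and CD8+ T cells were sorted and mixed at equal numbers, and 10000 cells per mouse were loaded for 5′ single-cell expression and receptor sequencing. No group without chemoimmunotherapy is analysed here, and the sources used here give neither age nor sex of the mice. Since the sort selected T cells, RNA of any other cell in these libraries came past or alongside that gate.

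The authors' cell table lists 30749 cells of the 69249 barcodes in the matrices, and the other 38500 barcodes are called absent barcodes below. The used cells numbered from 2923 to 7238 per mouse, held from 27791735 to 65519423 UMIs per mouse, and had median depths of 4516 to 7148 UMIs per cell in isotype and 6602 to 7682 in anti-ACBP mice. The part of this depth gap in levels per UMI was not tested. Shares of cells by cluster are given at equal depth as well, whereas shares over a class or over all used cells are not thinned unless this is said. A Cd3 UMI was found in 99.8% of used cells and a T cell receptor beta (TRB) chain in 79.7%, against 2.77% of absent barcodes with a TRB chain. Of the distinct used barcodes, 536 (1.77%) occurred in more than 1 library. The table numbers its clusters from 0 to 8 without naming them. The CD8 class holds clusters 0, 3 and 6, the conventional CD4 class (mostly CD4 cells that are not regulatory) clusters 1 and 7, and the regulatory class cluster 2, which carries Foxp3. These clusters were taken whole, and 14.7% of cluster 1 and 11.1% of cluster 7 had more Cd8 than Cd4 UMIs. Clusters 4, 5 and 8 mix lineages, so each of their cells was placed by its own Cd4, Cd8 and Foxp3 UMIs. The classes held 16945 CD8, 8902 conventional CD4 and 4706 regulatory cells, of which 16040, 6727 and 3282 had Cd4 and Cd8 UMIs of their own that fit the class (more Cd8 in the CD8 class, more Cd4 in the others). Levels are CPM, the UMIs of a gene per 1000000 UMIs of all genes in the summed cells of 1 mouse.

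As background, Csf1 encodes the growth factor that keeps macrophages alive through the receptor CSF1R, and activated T cells can secrete it. Spp1 encodes osteopontin, a secreted protein that binds CD44 and integrins and is abundant in tumour macrophages, stroma and some activated T cells. Fcer1g encodes the signalling adaptor FcR gamma, which carries Fc receptors and natural killer receptors and can replace CD3 zeta in innate-like T cells. Itgax encodes CD11c, an integrin alpha chain used as a dendritic cell marker and also found on activated CD8 T cells. Mmp9 encodes gelatinase B, a secreted protease that cuts collagen and is a typical product of neutrophils.

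The 5 genes were spread over the T cells in different ways. Csf1 had 26762 UMIs in 30.7% of used cells, and 44.7% of those cells had a single UMI. Spp1 had 17353 UMIs in 11.01% of cells, and 63.1% of these UMIs lay in 373 cells with at least 10 each. Fcer1g had 10426 UMIs in 4.72% of cells and was as concentrated, with 66.3% of its UMIs in 337 cells of at least 10. Itgax (1538 UMIs, 3.56% of cells) and Mmp9 (1438 UMIs, 2.85% of cells) were low, with 1 UMI in 72.0% and 67.2% of their cells. Spp1 and Fcer1g were thus high in few cells, while Csf1 was spread over many.

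**Figure D1:**
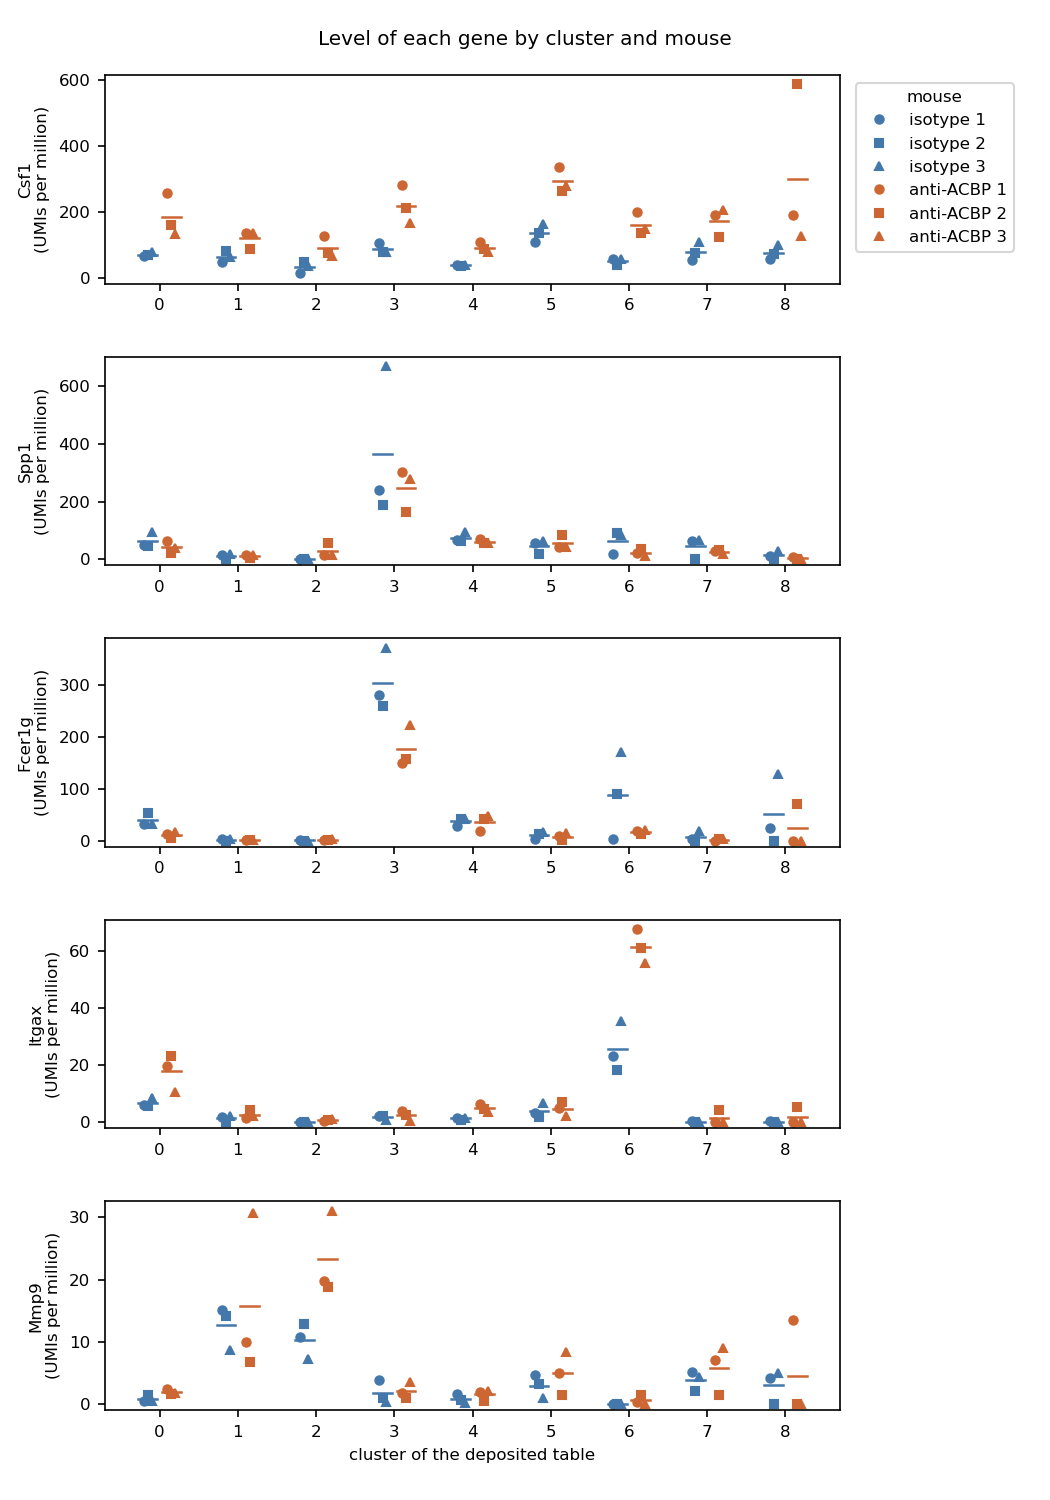
Level of each of the 5 genes (vertical axes, CPM, each from 0 on its own scale) in clusters 0 to 8 (horizontal axis) for the 3 isotype mice (blue) and the 3 anti-ACBP mice (orange). Points are mice and short lines are group means, with Csf1 present in every cluster, Spp1 and Fcer1g highest in cluster 3, Itgax in cluster 6 and Mmp9 in clusters 1 and 2.

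Csf1, the ligand of the group, was present in every cluster and was higher with anti-ACBP in each of them. In CD8 T cells it stood at 67.9, 64.9 and 68.0 CPM in the isotype mice and at 238, 165 and 137 CPM in the anti-ACBP mice. The isotype mice lay close together, and the anti-ACBP mice all lay above them and further apart. The means were 66.9 ± 1.74 and 180 ± 52.2 CPM (SD, n = 3 each), a 2.70-fold difference. Among all genes tested in CD8 cells, 15.7% had anti-ACBP values that all lay above the isotype values, and as the gene was chosen with this contrast in view nothing is read from that share. Mouse anti-ACBP 1 was the highest in CD8 cells.

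In conventional CD4 T cells Csf1 was at 49.7, 80.0 and 69.1 CPM for isotype and 151, 107 and 151 CPM in anti-ACBP mice (2.06-fold, 10.2% of genes with such groups). In regulatory T cells it was lower, at 17.8, 47.0 and 37.3 CPM against 128, 74.0 and 75.0 CPM (2.71-fold, 14.8% of genes). The groups did not overlap in either class. Csf1 also did not overlap in any of the 9 clusters, with folds from 1.90 in cluster 1 to 3.97 in cluster 8. The background share of genes with higher, non-overlapping groups was 15.0% in cluster 0, 9.98% in cluster 1, 14.4% in cluster 2, 11.1% in cluster 3, 10.5% in cluster 4, 7.86% in cluster 5, 9.94% in cluster 6, 7.05% in cluster 7 and 6.18% in cluster 8. For lower groups the shares were 6.96, 9.66, 12.2, 6.07, 7.27, 6.92, 9.53, 6.78 and 6.7% in clusters 0 to 8, in that order. The value of 587 CPM in cluster 8 of mouse anti-ACBP 2 rested on 107 UMIs in 8 cells.

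Across isotype clusters, Csf1 was highest in cluster 5, at 135 ± 28.3 CPM (SD, n = 3), where no mouse fell below any mouse of cluster 3, the next at 86.1 ± 17.1 CPM. From cluster 3 down through clusters 7, 8, 0, 1, 6 and 4 to cluster 2, at 31.6 ± 15.9 CPM, each neighbouring pair overlapped. With anti-ACBP the order began with clusters 8 (300 ± 250 CPM), 5 (293 ± 39.3 CPM) and 3 (219 ± 57.7 CPM) and ended with clusters 4 and 2 (88.7 ± 33.2 CPM), all neighbours overlapping. Cluster 5 mixes both lineages, and its Csf1 was high in both: its CD8 cells had 144 ± 55.4 CPM for isotype and 302 ± 50.1 CPM in anti-ACBP mice, and its CD4 cells 110 ± 26.7 and 291 ± 54.1 CPM (SD, n = 3 each).

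The mean share of cells with Csf1 was higher with anti-ACBP in every cluster, also at equal depth, where the mice overlapped in some clusters. With each cell thinned to 2000 UMIs (719 isotype and 311 anti-ACBP cells were shallower and left out), Csf1 was found in 11.5 ± 2.17% of cluster 0 cells in isotype and 22.5 ± 6.00% in anti-ACBP mice, and in 15.1 ± 0.99% and 30.4 ± 6.94% of cluster 3 cells (SD, n = 3). Without thinning the shares were 21.9 ± 2.28% and 43.3 ± 8.15% in cluster 0. At equal depth the mice overlapped in clusters 1, 7 and 8. In cluster 1 they ran from 7.24 to 11.3% for isotype and from 9.21 to 18.1% for anti-ACBP. In the same order the ranges were 10.79 to 16.85% and 8.475 to 23.4% in cluster 7. In cluster 8 they were 9.90 to 12.2% and 7.14 to 31.6%. No cluster lacked Csf1, so the least share of any cluster serves as the reference: regulatory cluster 2 had 5.33 ± 1.99% in isotype mice at equal depth, and its cells had a median of 5896 UMIs against 5858 in cluster 0. Genes whose cluster and mouse pattern was most like that of Csf1 included Gpr171 (Pearson r = 0.78) and Emp1 (0.74), over 54 sums of 1 cluster and 1 mouse and among 7220 genes. These sums share libraries and clusters, so the r values are descriptions.

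Of the 7 partner genes of Csf1, which comprise its receptor Csf1r, the other CSF1R ligand Il34, Csf2, Csf3 and the receptor chains of GM-CSF, 2 could be tested in CD8, 2 in conventional CD4 cells and 3 in regulatory cells, and none passed with edgeR (adjusted p under 0.05) or DESeq2. The unadjusted edgeR p was under 0.05 for Csf2 and Csf2ra in conventional CD4 cells and for none of these genes in the other classes. Across all genes edgeR called 0.964% in CD8 cells (0.512% higher and 0.452% lower with anti-ACBP). The conventional CD4 share was 0.329% (0.247% higher, 0.0823% lower), and the regulatory share was 3.34% (2.04% higher, 1.3% lower). Csf2, which encodes GM-CSF, had its highest level in conventional CD4 cells, with 249.4 ± 75.9 CPM for isotype against 491 ± 207 CPM for anti-ACBP mice (SD, n = 3; edgeR adjusted p = 0.298). In CD8 cells Csf2 was at 15.1 ± 3.12 and 17.6 ± 9.55 CPM. Csf2ra, a receptor chain of GM-CSF, was at 1.67 ± 0.13 and 1.49 ± 0.455 CPM in CD8 cells (SD, n = 3). Csf1r itself had 24 UMIs in all used cells together and was too low to test.

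**Figure D2:**
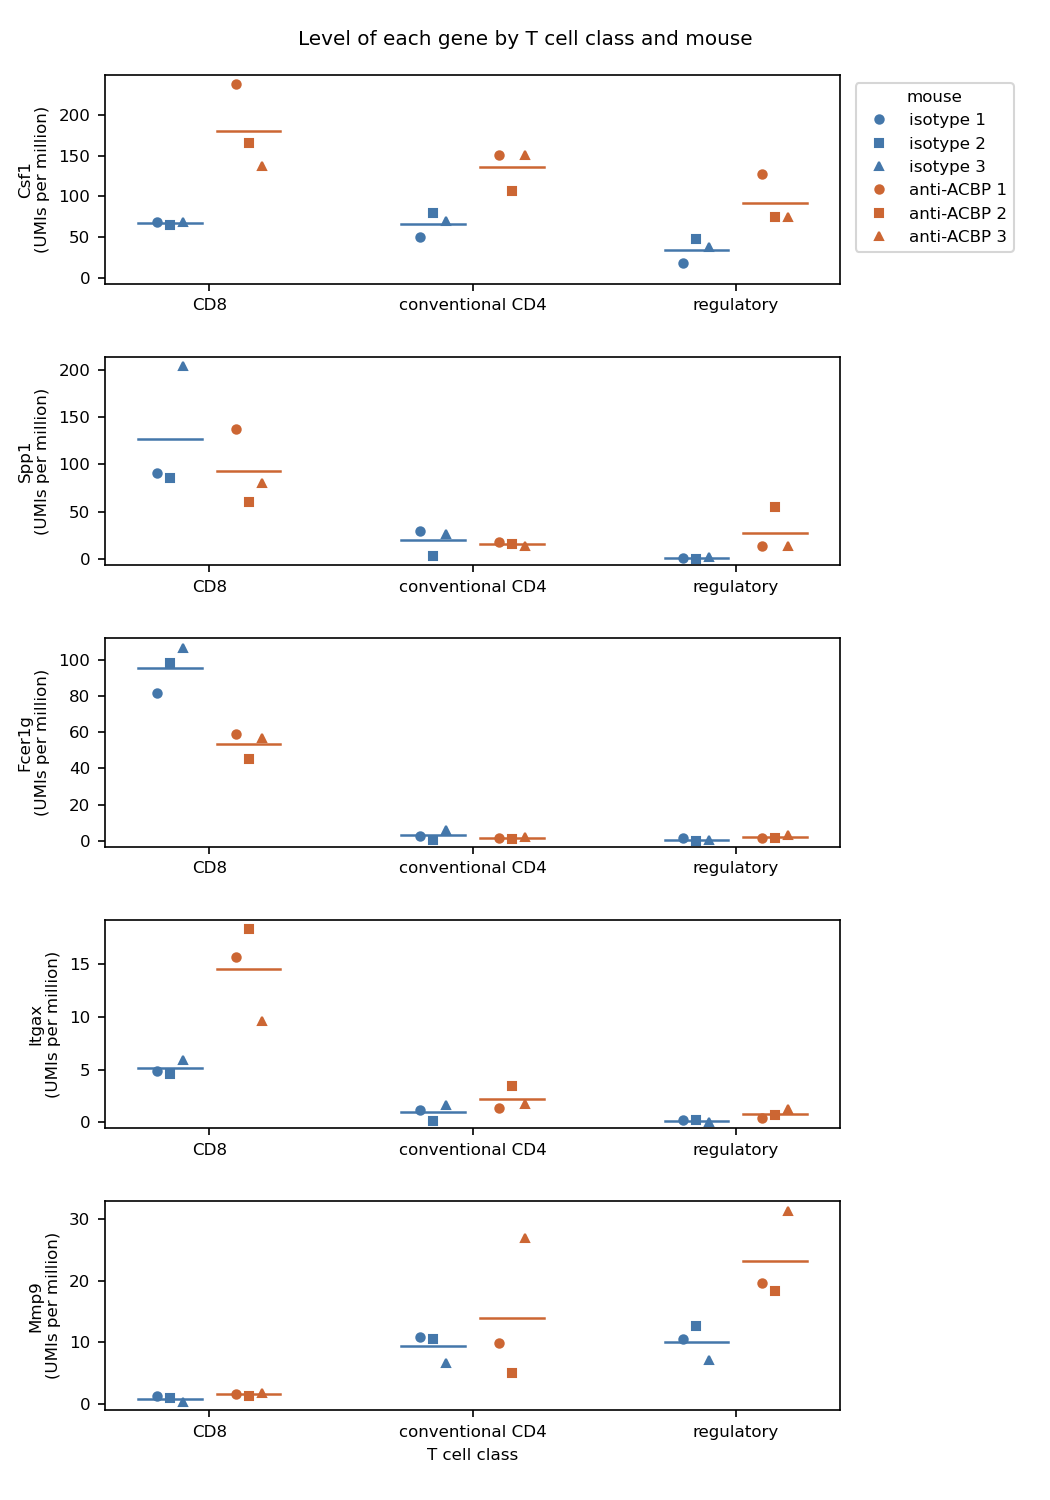
Level of each of the 5 genes (vertical axes, CPM, each from 0 on its own scale) in CD8, conventional CD4 and regulatory T cells for 3 isotype (blue) and 3 anti-ACBP (orange) mice. Points are mice and lines are group means. Csf1 lies higher with anti-ACBP in all 3 classes, and Fcer1g lies lower in CD8 cells.

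Spp1 and Fcer1g were both CD8 genes with their highest level in cluster 3. Cluster 3 held 10.4% of used cells, 55.4% of Spp1 UMIs and 67.3% of Fcer1g UMIs. The 150 bases before the RefSeq start site of each gene (GRCm38.p6, the first of 2 listed promoters for Spp1) are shown since the pair varied together; they were searched on both strands for 3 short motifs, AP-1 (TGANTCA), PU.1 (GAGGAAGT) and RUNX (AACCACA), with matches in capitals. The search covered 250 bases before to 50 after the start site. Spp1 lies on the plus strand of chromosome 5 (104435111 to 104441053), with its window at chr5:104434961-104435110, and Fcer1g on the minus strand of chromosome 1 (171229572 to 171234349), with its window at chr1:171234350-171234499.
Spp1: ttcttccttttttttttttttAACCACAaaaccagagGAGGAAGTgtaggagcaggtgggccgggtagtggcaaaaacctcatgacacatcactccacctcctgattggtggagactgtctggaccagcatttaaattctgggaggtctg
Fcer1g: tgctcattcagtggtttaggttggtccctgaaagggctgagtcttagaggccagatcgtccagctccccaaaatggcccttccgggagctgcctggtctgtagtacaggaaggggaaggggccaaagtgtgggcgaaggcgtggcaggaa
The Spp1 window held the RUNX letters from position -129 and the PU.1 letters from position -113, counted from the start site. The searched window of Fcer1g held none of the 3. Of 32851 mouse promoters of the same length, 5.27% held the RUNX, 3.20% the PU.1 and 7.81% the AP-1 letters. The PU.1 and RUNX matches do not overlap.

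Spp1, which encodes osteopontin, showed no difference between treatments that exceeded the spread of the mice in CD8 cells. Isotype mice stood at 91.1, 85.2 and 204 CPM and anti-ACBP mice at 138, 60.7 and 80.8 CPM, so that the groups overlapped. Mouse isotype 3 was the highest, and without it the log2 difference fitted by edgeR moved from -0.46 to 0.06. In cluster 3 the same mouse reached 670 CPM against 241 and 189 CPM in the other isotype mice, and the anti-ACBP mice were at 302, 163 and 278 CPM. In conventional CD4 cells Spp1 was at 30.0, 2.97 and 26.6 CPM for isotype and 17.6, 15.7 and 14.0 CPM in anti-ACBP mice, and without isotype 1 the log2 difference there moved from -0.31 to 0.33.

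Cluster 3 stood apart from every other cluster in Spp1, with 367 ± 264 CPM for isotype and 248 ± 74.5 CPM in anti-ACBP mice (SD, n = 3). Cluster 4 came next in both groups, at 74.6 ± 16.3 and 59.9 ± 7.70 CPM, and no mouse of cluster 3 fell to the level of cluster 4 within its group. Below cluster 4 all neighbours in the order overlapped, down to 1.06 ± 0.95 CPM in cluster 2 of isotype mice and 2.25 ± 3.89 CPM in cluster 8 of anti-ACBP mice. Thinned to 2000 UMIs, 17.7 ± 8.28% of isotype and 14.5 ± 1.29% of anti-ACBP cells of cluster 3 had Spp1 (33.3 ± 9.58% and 32.7 ± 3.05% unthinned). Regulatory cluster 2, set beside it as a reference, had 0.18 ± 0.16% and 2.66 ± 0.97% at equal depth, with a median depth of 5896 UMIs against 8745 in cluster 3. Of the 320 cells of cluster 2 with an Spp1 entry in the matrices, 232 (72.5%) had it stored explicitly as 0 and count as cells without Spp1 in these shares, so the reference is no plain measure of background. The genes most like Spp1 in pattern were the granzyme gene Gzmd (r = 0.80), Mesd (0.77) and Cd244a (0.77), the last encoding an inhibitory receptor of killer cells; Gzmd belongs to a family of near-identical granzymes whose reads can be split.

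Regulatory T cells had Spp1 at 1.30, 0 and 1.81 CPM in isotype mice and at 13.4, 55.4 and 14.3 CPM in anti-ACBP mice. These groups did not overlap, and the values rest on few cells. In mouse anti-ACBP 2, 5 cells held 191 of the 250 UMIs, and without the 5 highest cells of each mouse the values were 0.31, 0 and 0 against 6.88, 13.1 and 7.74 CPM. The 0 of isotype 2 was among 879 cells, 75 of which had an Spp1 entry stored as 0, so no limit on the share of cells with Spp1 is drawn from it. The summed macrophage and monocyte list was at 16.2 to 20.02 CPM for isotype and 18.8 to 29.0 CPM in anti-ACBP regulatory cells. Markers of CD8 cells moved with Spp1 there: Cd8a was at 12.6, 7.66 and 14.2 CPM for isotype against 21.3, 50.5 and 51.9 CPM for anti-ACBP, and Cd8b1 at 25.4, 18.2 and 38.0 CPM against 46.6, 64.7 and 62.5 CPM. DESeq2 called both genes and edgeR did not (adjusted p = 0.0709 and 0.0702). The part of either marker group in the Spp1 difference was not tested.

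The matrices store some values explicitly as 0, beside the many pairs of gene and cell with no stored value, and these stored zeros were unevenly placed. Over all genes 0.348% of the entries of used cells were stored as 0. For Spp1 it was 653 cells with a stored 0 beside 3385 cells above 0 (16.2%), for Fcer1g 4.04%, for Mmp9 1.13%, for Itgax 0.27% and for Csf1 0.23%. Several genes of other cells were stored as 0 far more often: Lyz2, the macrophage lysozyme, in 310 cells against 11 above 0, and Dcn, a fibroblast proteoglycan, in 232 against 34. The macrophage gene Cd68 was not among them, with a stored 0 in 23 cells against 2524 above 0 (0.903%). The sources used here do not say what a stored 0 stands for.

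The stored zeros of Spp1 in regulatory T cells differed between libraries. A value above 0 was found in 0.72, 0 and 0.22% of cells in isotype mice and in 4.05, 6.07 and 6.89% in anti-ACBP mice. Counting stored zeros as well, an Spp1 entry was found in 7.09, 8.53 and 7.42% of isotype cells and in 4.05, 6.28 and 9.58% of anti-ACBP cells. By entries the groups overlapped, whereas by UMIs they did not. Among conventional CD4 cells the low isotype 2 had an entry in 6.25% of cells, between the other isotype mice, and a value above 0 in 0.78%. In CD8 cells, counting stored zeros moved the isotype shares less than in regulatory T cells. Entries were found in 19.0, 20.1 and 21.9% of isotype and 18.1, 14.3 and 15.8% of anti-ACBP CD8 cells. There the shares above 0 overlapped (17.4, 16.4 and 21.0% against 18.1, 13.2 and 13.6%) and the shares with an entry did not.

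**Figure D3:**
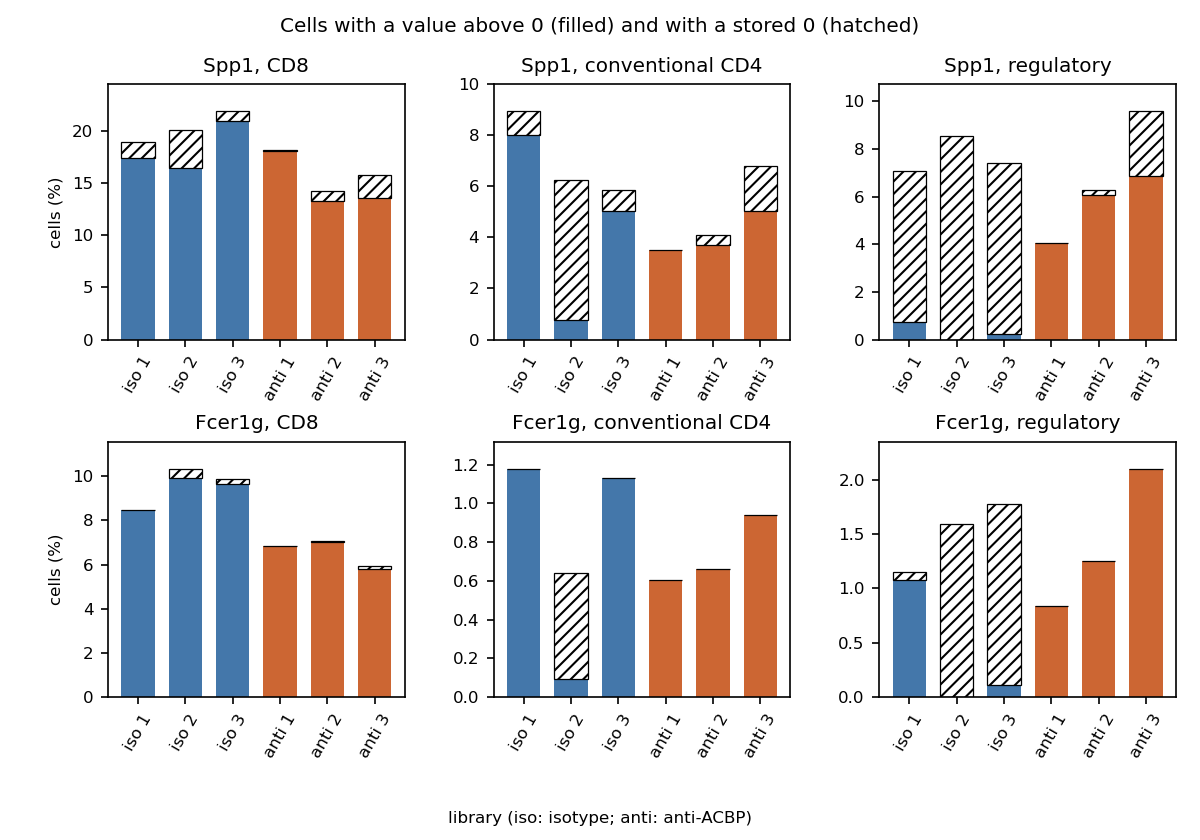
Share of cells (vertical axes, %) with a value above 0 (filled) and with an entry stored as 0 (hatched, on top) for Spp1 (upper row) and Fcer1g (lower row) in each library, in 3 T cell classes. In regulatory T cells nearly all Spp1 entries of the 3 isotype mice are stored as 0, and the whole bars of the groups overlap.

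Fcer1g, the signalling adaptor, was lower with anti-ACBP in CD8 T cells. Isotype mice stood at 81.6, 98.4 and 107 CPM and anti-ACBP mice at 58.7, 45.0 and 56.8 CPM. The groups did not overlap, with means of 95.5 ± 12.7 and 53.5 ± 7.42 CPM (SD, n = 3 each; 0.56-fold), and 8.68% of genes had lower, non-overlapping groups. Few Fcer1g entries of CD8 cells were stored as 0, and the shares of cells with an entry, 8.48, 10.3 and 9.85% against 6.82, 7.07 and 5.94%, did not overlap either. In cluster 0 it was at 33.2, 54.2 and 33.1 CPM against 13.7, 5.71 and 16.1 CPM (6.96% of genes lower without overlap). In cluster 3 it was at 281, 260 and 372 CPM against 150, 158 and 224 CPM (6.07% of genes lower). In cluster 4 the mice overlapped, with means of 37.2 ± 8.32 and 36.9 ± 15.5 CPM (SD, n = 3). Fcer1g was thus lower without overlap in 2 of the 3 CD8 clusters as well as over the whole class, and in cluster 6 the isotype mice ranged from 2.46 to 171 CPM.

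Cluster 3 stood apart from all others in Fcer1g too, at 304 ± 59.8 CPM for isotype and 177 ± 40.9 CPM in anti-ACBP mice (SD, n = 3). Clusters 6, 8, 0 and 4 followed in isotype mice with overlapping neighbours, and cluster 4 lay apart from cluster 5 (11.2 ± 7.13 CPM). Conventional CD4 cluster 1 (1.90 ± 1.43 CPM) and regulatory cluster 2 (0.59 ± 0.86 CPM) were the lowest. Thinned to 2000 UMIs, 20.7 ± 2.16% of isotype and 12.7 ± 1.75% of anti-ACBP cells of cluster 3 had Fcer1g (28.3 ± 1.81% and 20.2 ± 3.66% unthinned), against 0.17 ± 0.19% and 0.47 ± 0.28% in cluster 2. The genes most like Fcer1g were Lrrk1 (r = 0.80), Klra5 (0.80), of a natural killer receptor family with near-identical members, and Arsb (0.80).

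Spp1 and Fcer1g met in the same cells more often than their separate shares give. In all thinned cells 209 had both, against 41.9 if the shares were independent, a ratio of 4.99 that ran from 4.18 to 7.01 over the 6 mice. Part of that follows from their shared cluster, and within cluster 3 the ratio was 1.85 (1.56 to 2.27 over the mice), with 148 cells holding both. Within cluster 0 it was 3.45 (2.18 to 6.32), with 34 cells. Csf1 and Fcer1g were found together less often in cluster 3, in 77 cells against 124 if independent (0.64 to 0.78 within the mice). No thinned cell held Mmp9 with Fcer1g or with Itgax, against 10.7 and 5.64 cells if independent over all clusters. Within single clusters these expected counts were at most 1.425 and 0.651, too few to read an absence from. Across the 54 sums of cluster and mouse, Spp1 and Fcer1g had r = 0.72, and Mmp9 was negative with Itgax (-0.52) and Fcer1g (-0.50).

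Osteopontin binds CD44 and integrins on the receiving cell, and 6 of its 9 listed receptor genes could be tested in each class. Itgav, the alpha V integrin chain, fell in CD8 cells from 121 ± 2.45 to 93.1 ± 8.22 CPM (SD, n = 3), with a log2 change of -0.41 ± 0.07 (SE; edgeR adjusted p = 0.0433) and no overlap of the mice. The median log2 change of the 6 genes was 0.12 in CD8 cells, against -0.00 for all genes tested. The Itgav call was lost without isotype 2 (adjusted p = 0.0627), isotype 3 (0.182), anti-ACBP 1 (0.12), anti-ACBP 2 (0.186) or anti-ACBP 3 (0.0792), and without cells whose DF1 entry in the authors' table is FALSE (0.0615). Hyaluronan and osteopontin receptor Cd44 (186 ± 7.22 and 218 ± 14.5 CPM), Itgb1 (160 ± 8.38 and 170 ± 39.1 CPM) and Itga4 (85.5 ± 31.4 and 37.9 ± 36.3 CPM) did not pass in CD8 cells, nor did any receptor gene in the CD4 classes with edgeR. Itga4, the alpha 4 integrin chain, stood just outside the threshold in conventional CD4 cells, at 117 ± 6.92 and 73.8 ± 12.9 CPM (edgeR adjusted p = 0.0503), and DESeq2 called it there and in regulatory T cells. The unadjusted edgeR p was under 0.05 for Cd44, beside Itgav, in CD8 cells, for Itgb1 and Itga4 in conventional CD4 and for Itga4 in regulatory T cells.

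FcR gamma works beside other adaptors, and of 14 listed partners of Fcer1g 5 could be tested in CD8, 4 in conventional CD4 cells and 4 in regulatory cells. Klrk1, which encodes the receptor NKG2D, rose in regulatory T cells, with 9.26 ± 4.16 CPM under isotype and 25.8 ± 4.68 CPM under anti-ACBP (SD, n = 3). Its log2 change was 1.48 ± 0.27 (SE; edgeR adjusted p = 0.0288), and the mice did not overlap. That call was lost without isotype 1 (adjusted p = 0.0642), isotype 3 (0.0877) or any 1 anti-ACBP mouse (0.0614 to 0.0955), without cells that had a macrophage marker UMI (0.0827), and with only those cells whose Cd4 and Cd8 UMIs fit their class (0.079). In the last 2 settings the log2 change was larger than with all cells, at 1.69 and 1.75. The higher Cd8a and Cd8b1 of the anti-ACBP regulatory cells, given above with Spp1, also stood beside the Klrk1 result, and their part in it was not tested. Cd247, which encodes CD3 zeta, was at 248 ± 15.95 and 314 ± 18.0 CPM in regulatory T cells (SD, n = 3; log2 change 0.32), where DESeq2 called it and edgeR did not (adjusted p = 0.057, unadjusted p = 0.00223). No partner of Fcer1g passed in CD8 cells with edgeR (1, Klrk1, at an unadjusted p under 0.05) or DESeq2, nor with either tool in conventional CD4 cells (again Klrk1 unadjusted). In CD8 cells the adaptors Hcst (DAP10) and Cd247 were at 552 ± 46.4 and 627 ± 23.4 CPM and at 162 ± 8.89 and 169 ± 6.89 CPM, and the kinase Zap70 at 258 ± 9.49 and 256 ± 13.8 CPM (SD, n = 3 each). Tyrobp (DAP12), which pairs with many myeloid receptors and was picked after its values were seen, was at 7.09 ± 3.96 and 1.77 ± 1.65 CPM in CD8 cells (edgeR adjusted p = 0.309).

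Itgax, the CD11c integrin chain, was a gene of CD8 clusters 6 and 0 and was higher there with anti-ACBP. Its window is shown beside that of Csf1, since both genes were higher over CD8 cells, with the same motif search. Itgax lies on the plus strand of chromosome 7 (128129526 to 128150657), with its window at chr7:128129400-128129549, whose start site lies just inside the annotated span, and Csf1 on the minus strand of chromosome 3 (107741048 to 107760469), with its window at chr3:107760470-107760619.
Itgax: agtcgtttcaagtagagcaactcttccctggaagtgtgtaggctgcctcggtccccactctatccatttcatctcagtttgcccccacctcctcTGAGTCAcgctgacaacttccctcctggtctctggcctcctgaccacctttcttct
Csf1: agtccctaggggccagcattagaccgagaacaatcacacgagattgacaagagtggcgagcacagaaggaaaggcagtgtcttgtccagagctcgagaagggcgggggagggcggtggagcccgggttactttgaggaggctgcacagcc
The Itgax window held the AP-1 letters from position -56. The searched window of Csf1 held none of the 3 motifs.

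In cluster 6 Itgax stood at 23.4, 18.5 and 35.4 CPM for isotype and 67.5, 61.1 and 55.8 CPM in anti-ACBP mice. The groups were well apart, with means of 25.8 ± 8.73 and 61.4 ± 5.87 CPM (SD, n = 3; 2.39-fold). In cluster 0 it was at 6.196, 5.87 and 8.50 CPM against 19.8, 23.1 and 10.7 CPM, and in cluster 4 at 1.67, 0.92 and 1.51 CPM against 6.49, 4.63 and 3.75 CPM, again with no overlap. Over all CD8 cells it was at 4.84, 4.60 and 5.95 CPM against 15.7, 18.3 and 9.59 CPM (2.83-fold). In cluster 3, where Spp1 and Fcer1g peaked, Itgax was low and overlapped, at 1.77 ± 0.78 and 2.40 ± 1.79 CPM. Cluster 2 also had no overlap, but from 13 UMIs in all 6 mice.

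Cluster 6 lay apart from the next, cluster 0, in both groups. Cluster 0 lay apart from the next in anti-ACBP mice (cluster 4) and overlapped with the next in isotype mice (cluster 5). Clusters 5, 3, 1 and 4 followed in isotype mice, from 3.93 ± 2.61 to 1.37 ± 0.395 CPM with overlapping neighbours, and clusters 2, 8 and 7 were at or under 0.15 CPM. At equal depth Itgax was found in 6.198 ± 1.55% of isotype and 12.5 ± 2.72% of anti-ACBP cells of cluster 6 (10.7 ± 2.66% and 28.4 ± 2.82% unthinned). In regulatory cluster 2 the thinned shares were 0.03 ± 0.04% and 0.18 ± 0.16%, and the 2 clusters had close median depths of 5853 and 5896 UMIs. Conventional CD4 cluster 1 holds 1025 cells with more Cd8 than Cd4 UMIs, and these carried 59 of its 70 Itgax UMIs, at 5.59 ± 4.84 and 9.94 ± 4.86 CPM, against 0.38 ± 0.18 and 0.31 ± 0.29 CPM in its 4830 CD4 cells. The genes most like Itgax were Cd48 (r = 0.81), Ccl5 (0.77), a chemokine of memory and effector CD8 cells, and Ncald (0.75).

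CD11c needs the shared integrin chain Itgb2 to reach the surface. Of 9 listed partners of Itgax, 8 could be tested in CD8, 7 in conventional CD4 cells and 8 in regulatory cells. None passed with edgeR in any class, and DESeq2 called Itgae in CD8 and regulatory T cells. The unadjusted edgeR p was under 0.05 for Itgae and Tln1 in CD8, Tln1 in conventional CD4, and Itgae and Fermt3 in regulatory cells. Itgb2 was abundant in CD8 cells, at 495 ± 15.7 CPM for isotype and 498 ± 1.012 CPM in anti-ACBP mice (SD, n = 3). Its partner Itgal (LFA-1) was at 196 ± 16.6 and 223 ± 10.7 CPM, and the integrin linker talin, Tln1, at 278 ± 19.6 and 247 ± 16.6 CPM. Itgae, the CD103 chain of tissue-resident T cells, was picked after its values were seen; it was at 3.74 ± 1.57 and 16.6 ± 10.8 CPM in CD8 cells (edgeR adjusted p = 0.13) and at 72.3 ± 14.7 and 129 ± 28.0 CPM in regulatory T cells (edgeR adjusted p = 0.0535).

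Mmp9, the gelatinase (chromosome 2, 164940326 to 164955850), was a gene of the CD4 lineage. Clusters 1 and 2 held 42.3% and 36.8% of its UMIs. Regulatory T cells had it at 10.5, 12.7 and 7.07 CPM for isotype and 19.7, 18.4 and 31.4 CPM in anti-ACBP mice, without overlap (2.29-fold). Conventional CD4 cells had it at 10.9, 10.6 and 6.65 CPM against 9.91, 5.06 and 26.9 CPM. There the groups overlapped, mouse anti-ACBP 3 was far above the rest, and without it the log2 difference moved from 0.56 to -0.30. In CD8 cells it stayed below 2 CPM in every mouse, at 0.86 ± 0.45 and 1.55 ± 0.24 CPM (SD, n = 3), from 183 UMIs.

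In isotype mice clusters 1 (12.7 ± 3.50 CPM) and 2 (10.3 ± 2.83 CPM) overlapped, and cluster 2 lay apart from cluster 7 (3.85 ± 1.56 CPM). With anti-ACBP cluster 2 came first, at 23.2 ± 6.76 CPM, and overlapped with cluster 1, at 15.8 ± 13.0 CPM. All lower neighbours overlapped in both groups, except that cluster 4 lay above cluster 6 in isotype mice, where none of 347 cells had a Mmp9 UMI (a count that allows up to 0.865% of cells to hold a UMI, for counting error only). That gap lies at the floor and is no clear separation. In cluster 4, isotype 3 had Mmp9 in 1 of 539 cells (0.168 CPM), and cluster 6 held 621247 to 813089 UMIs per isotype mouse. At equal depth Mmp9 was found in 2.17 ± 0.66% of isotype and 4.69 ± 0.85% of anti-ACBP cells of cluster 2 (4.96 ± 1.72% and 10.0 ± 2.86% unthinned), against 0.15 ± 0.05% and 0.28 ± 0.14% in CD8 cluster 0, at close median depths. Within cluster 1 the split by lineage was the reverse of that of Itgax, with 15.0 ± 3.68 and 19.3 ± 17.6 CPM in its CD4 cells and 2.78 ± 3.03 and 2.77 ± 0.29 CPM in its cells with more Cd8. The genes most like Mmp9 were Odc1 (r = 0.80), an enzyme of polyamine synthesis, Ly6a (0.80), and Selenop (0.78).

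Of 13 listed partners of Mmp9, inhibitors, related proteases and Lcn2, 4 could be tested in CD8, 4 in conventional CD4 cells and 6 in regulatory cells. Adam8, a membrane-bound protease of activated leukocytes, rose in conventional CD4 cells from 62.5 ± 1.98 to 100.5 ± 11.7 CPM (SD, n = 3; log2 change 0.70 ± 0.10 SE; edgeR adjusted p = 0.0316). It also rose in regulatory T cells, from 53.4 ± 7.22 to 91.1 ± 14.6 CPM (log2 change 0.76 ± 0.14 SE; edgeR adjusted p = 0.0267). The mice did not overlap in either class. In CD8 cells Adam8 was at 91.6 ± 15.3 and 126 ± 14.0 CPM and did not pass (edgeR adjusted p = 0.163), and the difference between classes was not tested. The conventional CD4 call was lost without isotype 3 (adjusted p = 0.142), anti-ACBP 1 (0.112) or anti-ACBP 3 (0.0663), and with only those cells whose Cd4 and Cd8 UMIs fit their class (0.0512), where the log2 change was as large, at 0.72. The regulatory call was lost without isotype 3 (0.101), anti-ACBP 1 (0.0701) or anti-ACBP 3 (0.0892).

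Mmp25, a membrane-anchored metalloproteinase, also rose in regulatory T cells, at a low level from 0.98 ± 0.28 to 3.45 ± 1.121 CPM (SD, n = 3; log2 change 1.77 ± 0.42 SE; edgeR adjusted p = 0.0456). Its call was lost without any 1 mouse other than isotype 2 (adjusted p from 0.0638 to 0.186), with DESeq2 (0.0573), without cells with 2 or more TRB chains (0.0854) and without cells whose DF1 is FALSE (0.0509). The log2 change in these 3 settings was 1.80, 2.03 and 1.63. The other partners passed in no class with edgeR. Unadjusted, the edgeR p was under 0.05 for Adam8 and Adam10 in CD8 cells. The same held for Timp2 and Adam10, beside Adam8, in conventional CD4 cells. In CD8 cells the proteases Adam10 (58.9 ± 2.45 and 52.4 ± 1.68 CPM) and Adam17 (41.7 ± 1.54 and 43.7 ± 2.16 CPM) and the inhibitor Timp2 (8.07 ± 2.51 and 9.43 ± 2.51 CPM) did not pass. Timp2 was higher in the CD4 lineage, at 59.9 ± 2.09 and 45.6 ± 4.44 CPM in conventional CD4 cells (edgeR adjusted p = 0.123).

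The absent barcodes show where else in these libraries the 5 genes were found. Those under 2000 UMIs, 36920 barcodes, held Spp1 at 641 CPM, against 72.7 CPM in used cells, and Csf1 at 143 against 112 CPM. Fcer1g was at 52.0 against 43.6 CPM, Itgax at 6.12 against 6.44 CPM and Mmp9 at 8.38 against 6.02 CPM. Spp1 alone of the 5 was much higher in these shallow absent barcodes than in used cells. Of all Spp1 UMIs, 87.7% lay in absent barcodes of any depth. In the 868 absent barcodes of 2000 to 10000 UMIs, Fcer1g (433 CPM), Itgax (17.3 CPM) and Mmp9 (16.7 CPM) were higher than in used cells too. Many marker genes of other cells were almost gone from the used cells. Lyz2 had 14 UMIs there against 7347 in absent barcodes, and Dcn had 34 against 49856. Other listed markers had most of their UMIs in used cells, such as Cd68 (3066 against 1410), Cd74 (34898 against 12854) and Il1r2 (84173 against 9426).

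**Figure D4:**
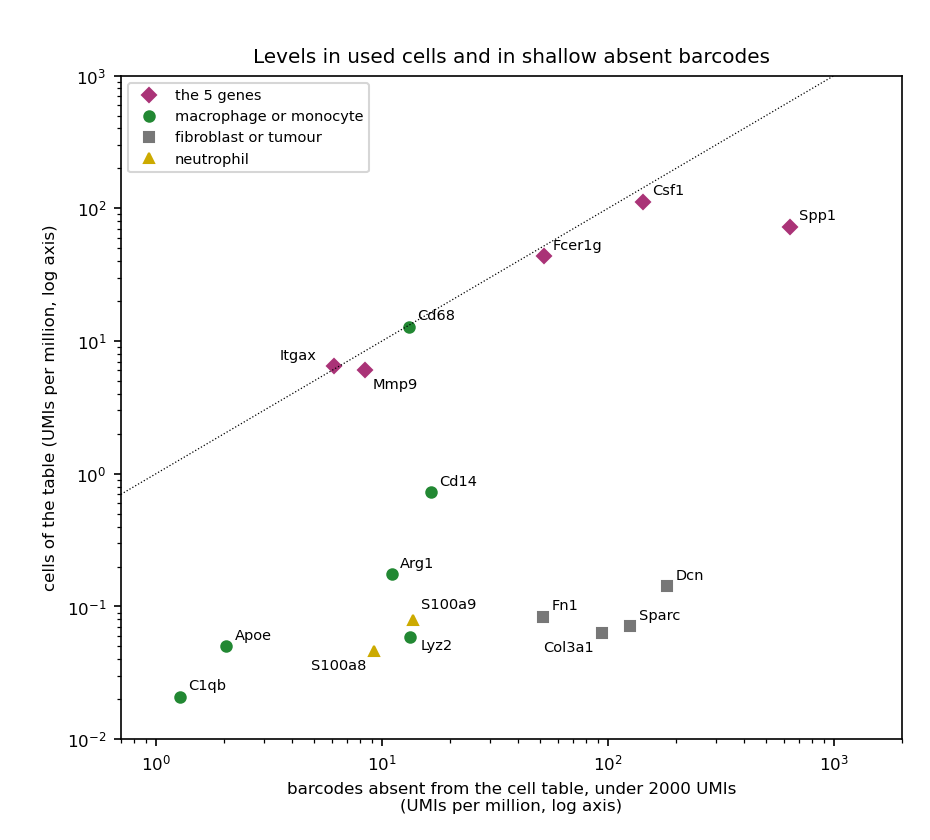
Level of the 5 genes (diamonds) and of markers of macrophages or monocytes, fibroblasts or tumour, and neutrophils in used cells (vertical, CPM, log axis) against absent barcodes under 2000 UMIs (horizontal, CPM, log axis). The dotted line marks equal levels, and each level pools both treatments. Csf1, Fcer1g, Itgax and Mmp9 lie near the line, Spp1 lies below it, and most markers lie far below it.

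Among the 1580 absent barcodes of at least 2000 UMIs, the 5 genes split by the markers that the barcode held. The 556 barcodes with stroma or tumour markers had Spp1 at 3167 CPM and Csf1 at 174 CPM, with Fcer1g at 0 UMIs. The 70 barcodes with macrophage markers had Fcer1g at 3274 CPM, Spp1 at 1595 CPM, Mmp9 at 144 CPM and Itgax at 88.9 CPM. The cut was 5 marker UMIs, and 256 of the barcodes lay within 2 UMIs of it. Both kinds of barcode thus held more Spp1 per UMI than any T cell cluster of any mouse.

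Spp1 was also set against marker genes of other cells, by the number of cells or barcodes that held each. For each 1000 with Spp1 above 0, the shallow absent barcodes had 7.87 with Lyz2 above 0 and 371 with Dcn above 0, and cluster 3 had 1.96 and 12.7. With stored zeros counted as well, there were 43.4 Lyz2 and 372 Dcn entries per 1000 Spp1 entries in the shallow absent barcodes and 27.4 and 31.9 in cluster 3. Values stored as 0 thus weighed on the Lyz2 ratio in both kinds of barcode and on the Dcn ratio in cluster 3. In regulatory cluster 2 the Lyz2 and Dcn ratios were 22.7 and 22.7 by values above 0, from 2 cells each, and 172 and 116 by entries. By entries the Dcn ratio was lower than in the absent barcodes in all 9 clusters, while the Lyz2 ratio was lower only in clusters 3 and 4. As these ratios change with how zeros are counted, nothing is read from them about where the Spp1 UMIs came from.

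The macrophage and monocyte list of 16 genes summed to 11.8 to 15.5 CPM for isotype and 11.7 to 16.1 CPM in anti-ACBP mice, mostly from Cd68, with Adgre1, Mrc1 and Trem2 at 0. Without Cd68, a marker of that list was found in 1.77% of cells with Spp1 (median depth 9886 UMIs) and 0.70% of cells without (5791 UMIs), and in 2.07% with Fcer1g (9551 UMIs) and 0.76% without (5985 UMIs). The 100 cells with most Spp1 all had a Cd3 UMI and 81.0% had a TRB chain, and of the 100 cells with most Fcer1g 98.0% and 77.0% did. The stroma list was at 0.40 to 0.70 CPM over all 6 mice. The neutrophil list reached 283 to 380 CPM for isotype and 345 to 405 CPM in anti-ACBP mice, nearly all from Il1r2, which T cells also express, while S100a8 had 11 UMIs. The dendritic list (118 to 216 CPM over the mice) came mainly from Cd74, H2-Ab1 and Zbtb46, with Clec9a at 0. No gene of the lists for other cell types passed with edgeR or DESeq2, of 16 tested in CD8, 12 in conventional CD4 cells and 11 in regulatory cells. Of the 16 macrophage and monocyte genes only Cd68 had enough UMIs to be tested, and of the 8 stroma genes none had. A treatment difference in RNA carried over from those cells could thus not be seen by these tests. The unadjusted edgeR p was under 0.05 for 1 in each, the mast cell and basophil gene Mcpt8, the endothelial gene Pecam1 and Cd68. The part of these cells in the levels of the 5 genes was not tested.

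The T cell receptors gave a readout that the choice of genes had not used. At equal depth, the share of cells with a TRB chain was 82.3 ± 2.62% with a Csf1 UMI and 81.2 ± 2.45% without (SD, n = 6 mice). For Spp1 the shares were 80.2 ± 2.97% and 81.4 ± 2.38%, for Fcer1g 77.2 ± 5.79% and 81.5 ± 2.32%, for Itgax 78.5 ± 8.41% and 81.4 ± 2.35%, and for Mmp9 79.0 ± 4.39% and 81.4 ± 2.38%. None of the 5 differences passed an exact two-sided sign-flip permutation test over the mice (adjusted p = 0.531 for each, unadjusted p from 0.156 to 0.531, smallest possible 0.0312). No difference in receptor share was thus shown with this number of mice. At equal depth the largest gap, -4.28 ± 5.19 percentage points for Fcer1g (SD), was lower in 5 of 6 mice. Without thinning the gap for Mmp9 was -8.66 points and lower in 6 of 6 mice (exact p = 0.0312, adjusted p = 0.0781).

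Clone size was compared in CD8 cells with 1 TRB chain, as the share of cells in clones of at least 5 cells. It was 90.1 ± 4.34% in cells with Spp1 and 86.4 ± 5.01% in cells without (SD, n = 6 mice), higher in 6 of 6 mice by 3.77 ± 2.11 percentage points. That gave the smallest p the exact permutation test allows, 0.0312, which did not pass over the 4 genes compared (adjusted p = 0.125). The differences were 2.76 points for Csf1 (5 of 6 mice), 1.77 for Fcer1g (3 of 6 mice) and 2.07 for Itgax (3 of 5 mice), with adjusted p of 0.312, 0.438 and 0.438 by the same exact test. Mmp9 had too few CD8 cells. Within cluster 0 the difference for Spp1 was 4.12 ± 2.81 points, higher in 6 of 6 mice, and within cluster 3 it was 1.38 ± 5.54 points, higher in 4 of 6.

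By the cell cycle phase in the authors' table, within the CD8 class each of the 5 genes had its highest mean in G1 cells. This order did not hold for Spp1 in conventional CD4 cells, at 29.1 ± 21.8 CPM in S and 15.5 ± 10.7 CPM in G1 (SD, n = 6 mice). In the CD8 class the values were as follows. Csf1 was at 151 ± 83.2 CPM in G1, 89.3 ± 49.4 in S and 76.2 ± 36.6 in G2M (SD, n = 6 mice). Fcer1g was at 90.0 ± 37.5, 63.1 ± 18.7 and 48.6 ± 17.4 CPM, and Itgax at 12.0 ± 7.08, 8.06 ± 3.61 and 4.92 ± 3.58 CPM. Spp1 differed least, at 129 ± 82.3, 91.7 ± 37.3 and 91.3 ± 31.9 CPM. In regulatory T cells Mmp9 was at 23.2 ± 7.46 CPM in G1, 6.15 ± 7.73 in S and 5.68 ± 5.07 in G2M. The ranges of the mice overlapped between G1 and G2M for all 4 genes in CD8 cells, and they did not overlap for Mmp9 in regulatory T cells, where the lowest G1 mouse was at 13.7 and the highest G2M mouse at 13.5 CPM. The highest S mouse for Mmp9 there was at 21.1 CPM, so G1 and S overlapped. These SDs and ranges span both treatments. The phases come from the same mice and were not compared within each mouse. An overlap of ranges thus does not show that the phases were alike in single mice.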

How the data were processed

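The authors deposited 1 matrix per mouse of unscaled UMI counts. Cell Ranger 7.0.0, Seurat and build mm10 are named, without roles, per the submitters' processing notes. The cell table gives clusters, phase and a column DF1, per the file headers; receptor contigs come from the authors' deposited table. The 5 genes and all lists were chosen with earlier results of these data known.

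Counts were summed per mouse and class and tested with edgeR 4.0.16 (quasi-likelihood, TMM, filterByExpr, robust; Benjamini-Hochberg over all genes at 0.05), with receptor segments left out; DESeq2 1.42.0 was an alternative. Every tested partner gene that passed is named, with up to 3 others of highest CPM in CD8 cells. Pattern likeness is Pearson's r of log2(CPM + 1), for genes of at least 10 CPM; 1 gene it would name is not reported here. Receptor shares need at least 20 cells with the gene per mouse. Doublets were not called here: the 1028 cells with 2 or more TRB chains, and the 2407 cells whose DF1 is FALSE, were kept and left out in alternatives. The mice of a group are taken as separate animals. The edgeR and DESeq2 p-values set the difference between groups against the spread between mice. The permutation p-values rest on differences within each mouse, over the mice of both groups. The sources used here do not say whether the authors corrected the counts for background RNA.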

Additional observations from a re-analysis of the deposited data

Results flagged for a closer look

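Fcer1g differed in opposite directions by class level in CD8 and regulatory T cells, the latter from few UMIs. In CD8 cells the anti-ACBP mice all lay below the isotype mice (log2 difference -0.84), and in regulatory T cells they all lay above them (log2 difference 1.92). The difference between the classes was not tested. Of all genes tested, 8.68% were lower without overlap in CD8 cells and 14.8% higher without overlap in regulatory cells. The regulatory values rest on 25 UMIs in isotype and 23 in anti-ACBP mice, and the nearest mice were at 1.49 CPM in both groups. Within cluster 2 alone the groups overlapped, with isotype 1 at 1.575 CPM and anti-ACBP 1 at 1.568 CPM. A value above 0 was found in 1.07, 0 and 0.11% of isotype regulatory cells, and an entry, stored zeros included, in 1.15, 1.59 and 1.77%. The anti-ACBP mice had 0.84, 1.26 and 2.10% by either count, so that the groups overlapped by both shares of cells.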

How the results depend on the processing

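The count of genes called with edgeR in CD8 cells, 113, was 497 with DESeq2, 355 with no filter on low counts and 47 without cells whose DF1 is FALSE (a choice made after seeing the data), and ran from 0 to 750 with 1 mouse left out. The 0 came without isotype 3 (1498 genes at an unadjusted p under 0.05), and 750 without isotype 1. In conventional CD4 cells 36 became 218 with DESeq2, 295 with no filter, 4 with only cells whose own UMIs match the lineage, and 2 to 139 with 1 mouse left out (without isotype 3 and isotype 1). In regulatory T cells 348 became 823 with no filter, 213 with matching cells only, and 44 to 774 with 1 mouse left out (without anti-ACBP 2 and isotype 2).

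Of partner genes, 1 was called in CD8 cells, 2 with DESeq2, 0 without cells whose DF1 is FALSE (8 at an unadjusted p under 0.05) and 0 to 2 with 1 mouse left out. In conventional CD4 cells 1 became 2 with DESeq2, size factors of the RLE kind, no filter, or without cells with 2 or more TRB chains, with a macrophage marker UMI or with DF1 FALSE. It became 0 with matching cells only (5 unadjusted), and 0 to 2 with 1 mouse left out. In regulatory T cells 3 became 5 with DESeq2 or no filter, and 0 to 7 with 1 mouse left out. With 1 mouse left out, the settings at 0 had 4 to 8 partner genes at an unadjusted p under 0.05.

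The groups share replicate numbers 1 to 3, but same-numbered mice did not deviate together (r of 0.24, 0.01 and -0.09 in CD8, 0.09, -0.15 and -0.01 in conventional CD4, then 0.23, -0.15 and -0.13 in regulatory cells). With the replicate number as a block, 158 genes were called in CD8 cells, 8 in the conventional CD4 class and 372 in the regulatory class, with 2, 0 (7 unadjusted) and 2 partner genes. Under this block Adam8 was no longer called in conventional CD4 (adjusted p = 0.0728) or regulatory T cells (0.0618), nor Mmp25 in regulatory T cells (0.0606), while Itgav and Klrk1 kept their calls (0.0485 and 0.0312).

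Log2 differences of the 5 genes were set against 1 SD of the mice, taken on a log scale. That SD is wide where a mouse lay at or near 0, so staying within it says little there. The differences stayed within it in 191 of 194 recomputed values. The other 3 changed sign with 1 mouse left out: Spp1 without isotype 3 in CD8 cells (0.0596, range -0.87 to 0.0596) and without isotype 1 in conventional CD4 cells (0.33, range -0.85 to 0.33), and Mmp9 there without anti-ACBP 3 (-0.30, range -0.30 to 0.92). Some differences counted as within that SD nearly vanished. In conventional CD4 cells Fcer1g moved from -0.81 to -0.05 without isotype 3, and Spp1 from -0.31 to -0.02 with the replicate block. TRB shares turned for Csf1 without thinning (-2.07 points) and for Itgax thinned to 1000 UMIs (0.0737 points) or with 1 mouse left out (-3.91 to 0.034 points, the latter without isotype 2). The clone share for Fcer1g turned with clones of at least 2 cells (-1.11 points). Few UMIs of Itgax and Mmp9 limit their values in most clusters.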
